A study of Rattus norvegicus with 6 samples.

Results

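The genes described here encode the proteasome, the barrel-shaped protease that breaks down ubiquitin-tagged proteins, and its regulatory caps and activators. Members were taken by symbol: every rat protein-coding gene named Psma, Psmb, Psmc, Psmd or Psme and a number. Of 48 such genes in the reference gene table, 43 had a probe named through its transcript accession, and 5 did not (Psmb3l1, Psmb3l2, Psmb6l1, Psmb11 and Psmd11). Psma8, which encodes a core subunit of the testis, had 4 probes, none well above background on any array. The other 42 genes were measured, of 27506 genes tested in all, and each was well above background on all 6 arrays. They comprised 14 core subunits, 16 subunits of the regulatory particle, 5 immune subunits, 3 assembly chaperones, 2 further activators and 2 genes that carry a subunit's name but encode no subunit (Psmc3ip and Psme3ip1).

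The tissue was renal cortex, from male rats of the Sprague-Dawley stock Crl:CD(SD) that were bought at 5 weeks of age. In the bromate group, 3 rats were given potassium bromate, an oxidising compound toxic to the kidney, at 100 mg/kg/day for 4 weeks. In the water group, 3 rats were given water for 4 weeks. The labels do not give the route of dosing. The labels call the animals of a group biological replicates, and RNA of each animal was labelled with Cy3 and hybridised to 1 single-colour array. Bulk cortex mixes many cell types, so fewer cells of a type and less RNA per cell cannot be told apart.

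A level below is a log2 signal minus that of the array's own 75th percentile, and a difference is bromate minus water with its standard error, in log2 units, with n = 3 per group. The test was limma across all genes, with Benjamini-Hochberg adjustment. Well above background were 35621 to 38180 of 61537 probes on the bromate arrays and 36517 to 38801 on the water arrays. Of all genes tested 6.87% rose and 7.59% fell, and the median difference was -0.02. Slide 1 held water replicate 1 and no other array, and slide 2 held the remaining 5. Of the markers of proximal tubule, 4 of 8 fell and 0 rose, with the glucose transporter gene Slc5a2 lowest at -0.92. The median of the 8 was -0.38, and 1 went the other way, at 0.35 with the groups apart upward. Of the 5 markers of thick ascending limb or distal tubule, 5 fell, with Umod, the gene of the main urinary protein, at -2.50. On leaving out 1 array at a time these counts were 2 to 3 and 1 to 5, the lowest for the second list without bromate replicate 2 or water replicate 2. Of 4 podocyte markers 1 fell, with 0 on leaving out bromate replicate 2 or 3 or water replicate 2 or 3, and 3 with array weights. The part of these marker shifts in the values below was not tested.

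The proteasome core is a stack of rings. Alpha subunits form the outer rings and gate the channel, and beta subunits form the inner rings, where Psmb5, Psmb6 and Psmb7 carry the protease sites. The regulatory particle binds ubiquitin chains, removes them and unfolds the substrate with a ring of ATPases. In cells of the immune system, and in other cells under interferon, Psmb8, Psmb9 and Psmb10 replace Psmb5, Psmb6 and Psmb7 in new particles, which changes the peptides cut for MHC class I, and the activator of Psme1 and Psme2 caps the core. When proteasome activity is short, the transcription factor NFE2L1 raises the genes of core and regulatory particle through antioxidant response elements.

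Of the 14 core genes 0 rose and 0 fell, with differences of -0.19 to 0.34 and a median of 0.03. Of the 16 regulatory particle genes 1 rose (Psmd14) and 0 fell, with a median of 0.02. Of the 5 immune genes 2 rose (Psmb10 and Psme2), 0 fell and 3 did not pass, with a median of 0.42. Among all 42 members 4 rose (the fourth being the activator gene Psme3) and 1 fell (Psme3ip1), beside 6.87% and 7.59% of all genes tested. At an unadjusted limma p under 0.05 stood 2 core genes and 10 of all members, and 1 core gene (Psma3) rose in 4 of the alternatives, array weights among them.

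**Figure D1:**
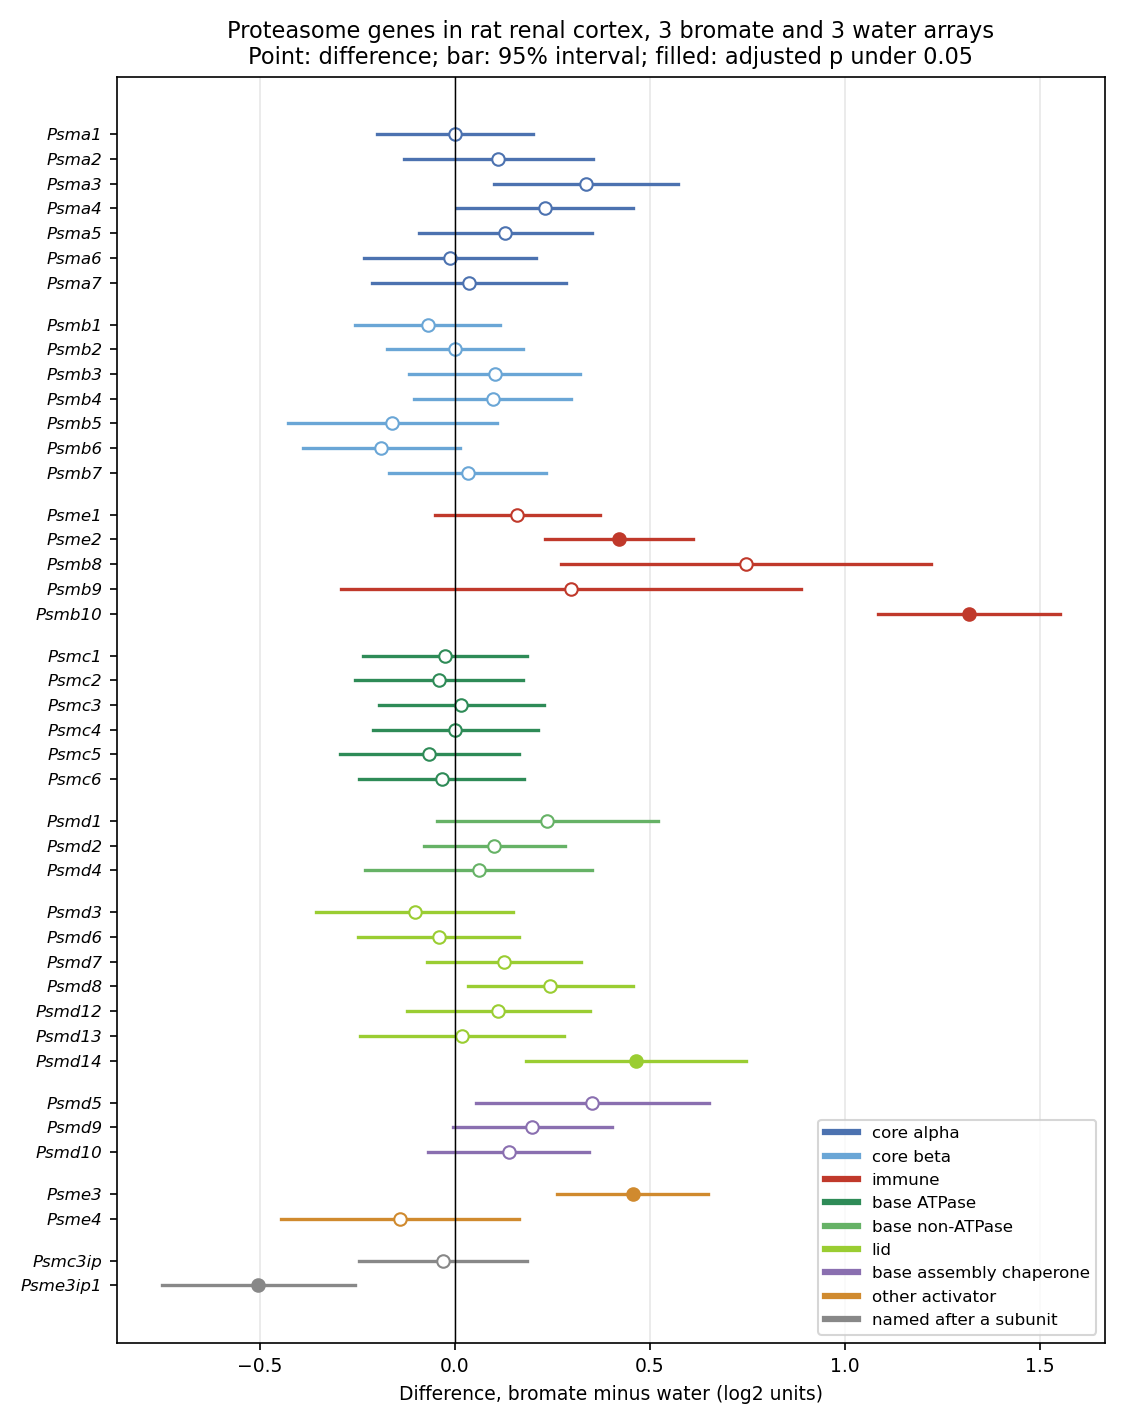
Difference between bromate and water arrays for each of the 42 genes, in log2 units, with 95% intervals from limma and classes by colour. Filled points passed at an adjusted p of 0.05: Psmb10, Psme2, Psmd14 and Psme3 to the right of 0 and Psme3ip1 to the left.

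Among the catalytic subunits of the core, Psmb6, which carries the caspase-like site, had levels of 2.61, 2.60 and 2.56 on the bromate arrays, against 2.88, 2.74 and 2.71 on the water arrays. All 3 bromate values lay below the water values, and the difference of -0.19 ± 0.08 did not pass (adjusted p = 0.173). Psmb5, which carries the chymotrypsin-like site, had 4.38, 4.35 and 4.34 on the bromate arrays, against 4.72, 4.41 and 4.42 on the water arrays. The bromate values were again all lower, the difference was -0.16 ± 0.11 (adjusted p = 0.354), and without water replicate 1, the highest array, it was -0.06. Psmb7, which carries the trypsin-like site, had 3.16, 3.09 and 3.08 on the bromate arrays, against 3.17, 3.02 and 3.04 on the water arrays, and the groups overlapped. The beta subunits without a protease site, Psmb1, Psmb2, Psmb3 and Psmb4, differed by -0.07 to 0.10, and the groups overlapped in each.

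Of the alpha subunits, Psma3 came nearest to the threshold. Its levels were 4.54, 4.36 and 4.36 on the bromate arrays, against 4.19, 4.03 and 4.03 on the water arrays, a difference of 0.34 ± 0.10 (1.26-fold, adjusted p = 0.0687). The groups did not overlap, nor did they in Psma4, with 5.63, 5.51 and 5.55 on the bromate arrays, against 5.46, 5.23 and 5.32 on the water arrays (0.23 ± 0.09, adjusted p = 0.146). The second probes of both genes, Psma3 at 0.21 ± 0.08 and Psma4 at 0.29 ± 0.09, did not pass either. Psma1, Psma2, Psma5, Psma6 and Psma7 differed by -0.01 to 0.13 with overlapping groups, and the sign of Psma6 changed under quantile and normexp normalization, those of Psma1 and Psma7 on leaving out an array. Over the 14 core genes the groups were apart in 2 genes upward and 2 downward, where 41.0% of all genes tested were apart in either direction. No core interval at 95% reached beyond 1.49-fold higher or 1.34-fold lower.

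The immune subunit Psmb10 had the largest difference of the 42 genes. Its levels were 3.88, 4.08 and 4.14 on the bromate arrays, against 2.68, 2.73 and 2.74 on the water arrays. Every bromate array was more than 1 log2 unit above every water array, and the difference was 1.32 ± 0.10 (2.49-fold, 95% interval 1.08 to 1.55, limma adjusted p = 0.00228). The call was kept in all 19 alternatives tried, with adjusted p from 0.000614 to 0.0278. These are not 19 separate checks. Slide as a block is the same fit as leaving out water replicate 1, and the choice of probe leaves this gene's 1 probe unchanged.

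Psmb8 and Psmb9, which lie beside the MHC class II genes with the peptide transporter genes, were less even. Psmb8 had levels of 1.36, 1.94 and 2.08 on the bromate arrays, against 1.03, 1.05 and 1.06 on the water arrays. Bromate replicate 1 was nearest to the water values, and the difference of 0.75 ± 0.19 (1.68-fold) did not pass (adjusted p = 0.0542, from 0.0109 to 0.151 over the alternatives, of which 5 passed). Psmb9 had 1.31, 2.16 and 2.14 on the bromate arrays, against 1.52, 1.54 and 1.65 on the water arrays. Here bromate replicate 1 lay below all water arrays while replicates 2 and 3 lay above them (0.30 ± 0.24, adjusted p = 0.435). Without bromate replicate 1 the differences were 0.96 for Psmb8 and 0.58 for Psmb9, and both passed (adjusted p = 0.0109 and 0.0296). For Psmb9 this was the only 1 of the 19 alternatives that passed, and its adjusted p reached 0.743 in the others.

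The activator genes Psme1 and Psme2 encode partners of 1 ring that opens the core without ubiquitin. Psme2 had levels of 5.22, 5.34 and 5.33 on the bromate arrays, against 4.90, 4.84 and 4.88 on the water arrays, and rose by 0.42 ± 0.08 (1.34-fold, adjusted p = 0.0233). Its second probe rose by 0.38 ± 0.09. Psme1 had 5.25, 5.38 and 5.42 on the bromate arrays, against 5.20, 5.25 and 5.12 on the water arrays, and did not pass (0.16 ± 0.09, adjusted p = 0.252). The groups of Psme1 were apart by less than 0.01. Psme2 missed the threshold on leaving out bromate replicate 2 or 3 or water replicate 2 or 3 (adjusted p up to 0.0864). The count of immune genes that rose was 1 in those cases and 4 without bromate replicate 1. In all 4 of the immune genes other than Psmb9 the groups did not overlap, where 19.6% of all genes tested were apart upward.

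**Figure D2:**
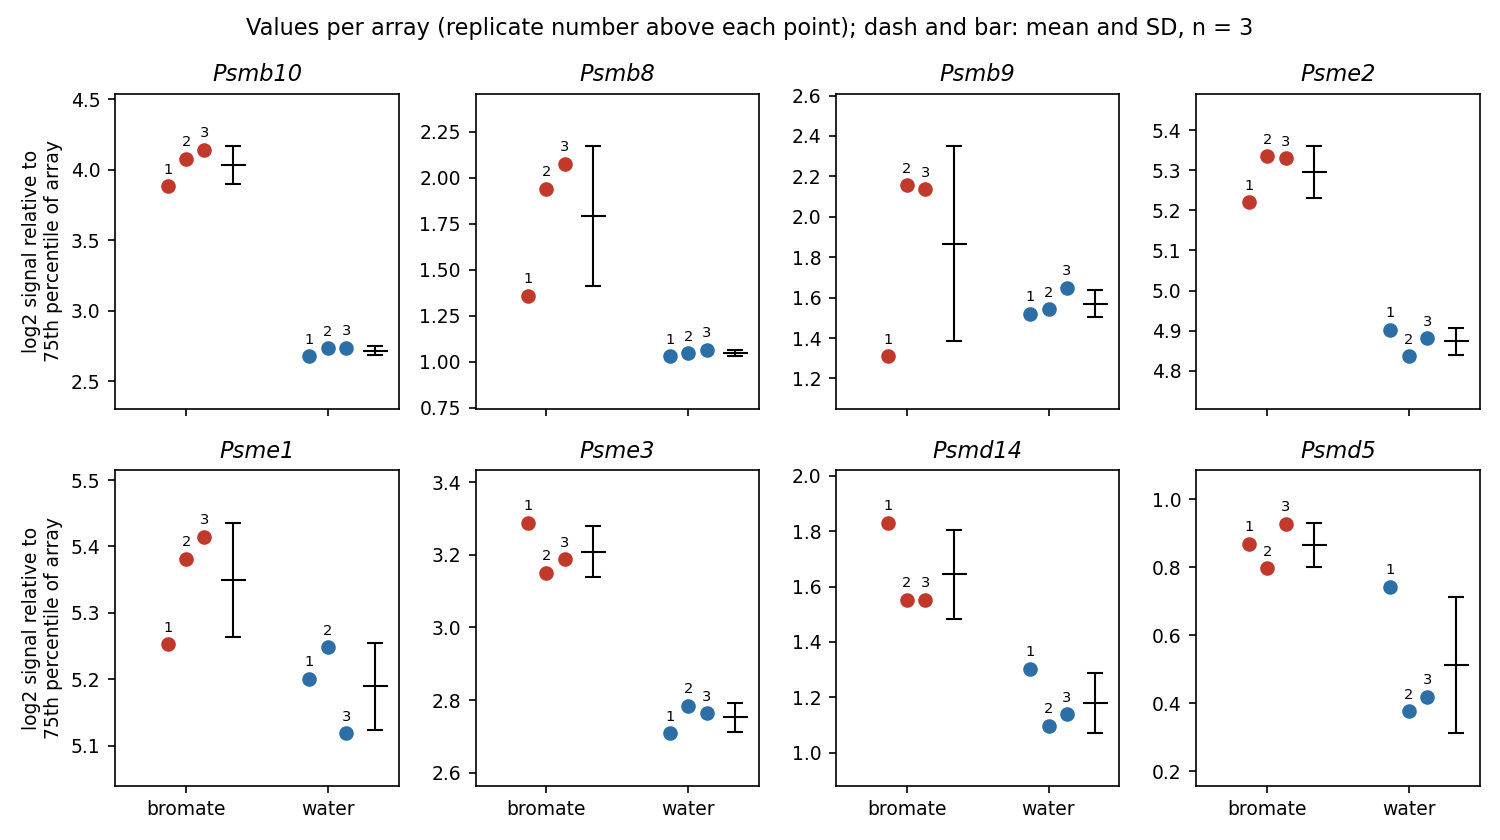
Levels on each array, in log2 signal relative to the 75th percentile of the array, for the 5 immune genes and for Psme3, Psmd14 and Psmd5, with mean and SD per group (n = 3). Psmb10 sits at 3.88 to 4.14 on the bromate arrays and 2.68 to 2.74 on the water arrays, and bromate replicate 1 stands below the other bromate arrays in Psmb8 and Psmb9.

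Each immune catalytic subunit was set against the subunit it replaces, as the log2 ratio of their signals on the same array. A probe's level cannot be set against another probe's, so only the change of the ratio is read. The ratio of Psmb10 over Psmb7 was higher by 1.28 on the bromate arrays (0.92 ± 0.18 in bromate, against -0.36 ± 0.11 in water, SD, n = 3). That of Psmb8 over Psmb5 was higher by 0.91 (-2.57 ± 0.40 in bromate, against -3.47 ± 0.19 in water). In both pairs all bromate values lay above all water values (two-sided exact permutation p = 0.1, the smallest that 3 against 3 arrays allow, and 0.15 adjusted over the 3 pairs). The ratio of Psmb9 over Psmb6 differed by 0.49 (-0.72 ± 0.50 in bromate, against -1.21 ± 0.15 in water), and its groups overlapped (exact permutation p = 0.3, adjusted p = 0.3). Within the second slide the changes were 1.22, 0.79 and 0.41 for the pairs of Psmb10, Psmb8 and Psmb9, where 3 against 2 arrays allow no exact p below 0.2.

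**Figure D3:**
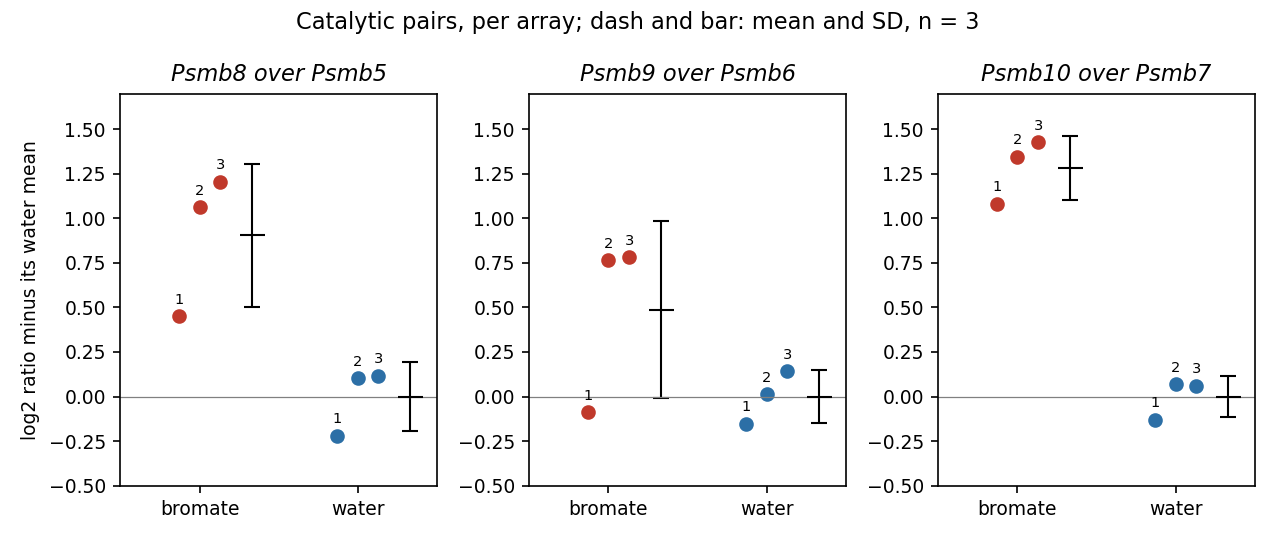
Log2 ratio of each immune catalytic subunit over the constitutive one it replaces, per array, minus its water mean, with mean and SD (n = 3). The ratios of Psmb10 over Psmb7 and Psmb8 over Psmb5 are apart between the groups, and bromate replicate 1 lies among the water arrays for Psmb9 over Psmb6.

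The start regions of the immune genes are shown because these genes share interferon control as background and differ in the data. Sequences run from 250 bases before to 50 after the gene's start and come from RefSeq on build GRCr8, which held a window for 38 of the 42 genes. Capitals mark matches, on either strand, to GAAA, any 2 bases and GAAA, a core of the interferon-stimulated response element, and to TTCNNNGAA, the site form bound by STAT factors. Psmb10 lies at chr19:50743243-50743542 (strand -), Psme2 at chr15:33052702-33053001 (strand -), Psmb8 at chr20:4656982-4657281 (strand -) and Psmb9 at chr20:4668750-4669049 (strand +).
Psmb10: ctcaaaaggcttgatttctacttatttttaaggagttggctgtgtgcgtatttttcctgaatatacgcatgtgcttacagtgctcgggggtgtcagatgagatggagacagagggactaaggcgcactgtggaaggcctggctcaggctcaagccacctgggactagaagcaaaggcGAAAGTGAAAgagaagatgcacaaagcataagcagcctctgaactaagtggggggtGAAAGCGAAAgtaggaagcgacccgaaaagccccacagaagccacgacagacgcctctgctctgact
Psme2: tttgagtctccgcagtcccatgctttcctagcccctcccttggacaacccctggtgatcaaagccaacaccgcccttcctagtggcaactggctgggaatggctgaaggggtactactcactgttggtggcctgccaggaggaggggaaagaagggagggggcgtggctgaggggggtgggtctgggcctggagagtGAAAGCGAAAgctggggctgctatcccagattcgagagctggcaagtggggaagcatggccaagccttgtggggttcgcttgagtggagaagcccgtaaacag
Psmb8: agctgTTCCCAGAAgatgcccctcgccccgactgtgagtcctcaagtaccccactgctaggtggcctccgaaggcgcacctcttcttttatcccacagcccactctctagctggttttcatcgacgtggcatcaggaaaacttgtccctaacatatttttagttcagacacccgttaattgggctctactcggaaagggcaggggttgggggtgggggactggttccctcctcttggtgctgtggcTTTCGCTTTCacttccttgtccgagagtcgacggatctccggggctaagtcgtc
Psmb9: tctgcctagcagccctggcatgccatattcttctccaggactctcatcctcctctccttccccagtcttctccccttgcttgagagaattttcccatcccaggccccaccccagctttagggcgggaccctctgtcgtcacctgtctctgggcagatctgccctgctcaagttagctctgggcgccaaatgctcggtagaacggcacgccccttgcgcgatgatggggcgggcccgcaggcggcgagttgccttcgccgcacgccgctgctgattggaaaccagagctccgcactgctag
The first pattern stood in 3 of the 5 immune windows, in 2 of 13 core windows and in 1 of 13 regulatory particle windows, against 3.92% of all 33469 windows of this length. The 3 immune genes were Psmb10, with matches starting at -73 and -17 from the gene's start, Psme2 at -53 and Psmb8 at -4. Any relation of these matches to the differences was not tested. The windows of Psmb9 and of Psme1, which is not printed, held neither pattern. That of Psmb9 overlapped by 44 bases the window of Tap1, which is read from the other strand. The second pattern stood in 1 of 5 immune, 0 of 13 core and 3 of 13 regulatory particle windows (8.87% of all). TGACNNNGC, a core of the antioxidant response element, stood in 4 of 13 core windows (Psma3, Psmb2, Psmb5 and Psmb6), 2 of 13 regulatory particle windows (Psmd1 and Psmd3) and 0 of 5 immune windows, against 12.1% of all. The box CCAAT stood in 21 of the 38 windows, against 37.5% of all, and in Psmb2 it shared 1 base with the antioxidant match. Matches describe letters in these windows and show no binding.

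In the regulatory particle, Psmd14, the lid enzyme that removes ubiquitin chains from a substrate, rose by a narrow margin. It had levels of 1.83, 1.55 and 1.55 on the bromate arrays, against 1.30, 1.10 and 1.14 on the water arrays. The groups did not overlap, and the difference was 0.46 ± 0.11 (1.38-fold, adjusted p = 0.0489). The call did not hold with slide as a block (0.53, adjusted p = 0.0548) or on leaving out any 1 array (adjusted p up to 0.143). Psmd8, a lid scaffold gene, had 3.15, 3.14 and 3.18 on the bromate arrays, against 3.03, 2.82 and 2.88 on the water arrays (0.24 ± 0.09, adjusted p = 0.112). The other lid genes, Psmd3, Psmd6, Psmd7, Psmd12 and Psmd13, differed by -0.10 to 0.13.

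By median absolute difference, the ATPase genes of the base were the flattest class. The ATPase genes Psmc1, Psmc2, Psmc3, Psmc4, Psmc5 and Psmc6 differed by -0.07 to 0.02, the groups overlapped in all 6, and the median absolute difference was 0.03, against 0.24 over all genes tested. The 2 sets were not matched for signal, whose mean on water replicate 1 was 4.10 for the ATPase genes and -0.27 over all genes tested. Psmc2, for example, had levels of 5.05, 4.87 and 4.94 on the bromate arrays, against 5.05, 4.92 and 5.02 on the water arrays. The sign of Psmc1 changed with slide as a block, that of Psmc3 under normexp, and that of Psmc4 on leaving out an array. Of the large base scaffolds, Psmd1 had 5.79, 5.53 and 5.55 on the bromate arrays, against 5.53, 5.26 and 5.37 on the water arrays (0.24 ± 0.12, adjusted p = 0.215). The bromate values all lay above the water values, by less than 0.01 at the nearest pair. Psmd2 differed by 0.10 ± 0.07 and the ubiquitin receptor gene Psmd4 by 0.06 ± 0.12. Over the 16 genes of the particle the groups were apart upward in 5 and downward in 0, against 19.6% and 21.5% of all genes tested.

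The assembly chaperones Psmd5, Psmd9 and Psmd10 hold base subunits until the base is complete. The groups were apart upward in all 3, where 19.6% of all genes tested were apart upward. Of the 3, 0 passed by limma (1 at an unadjusted p under 0.05, 0 to 1 by each alternative). Psmd5 had levels of 0.87, 0.80 and 0.93 on the bromate arrays, against 0.74, 0.38 and 0.42 on the water arrays (0.35 ± 0.12, adjusted p = 0.106). Water replicate 1 was the highest water array, and without it, which is also the comparison within the second slide, Psmd5 rose by 0.47 ± 0.08 (adjusted p = 0.0359). It also passed with array weights (adjusted p = 0.0248). Without any other array Psmd5 did not pass (adjusted p up to 0.255). Psmd9 differed by 0.20 ± 0.08 and Psmd10 by 0.14 ± 0.08.

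Water replicate 1 stood above the other water arrays across the core and regulatory particle. It exceeded the water mean in 27 of 30 genes, with a median of 0.09, against 3 genes (-0.07) on water replicate 2 and 11 genes (-0.02) on water replicate 3. Bromate replicate 1 exceeded the water mean in 25 of the 30 genes (median 0.10), and bromate replicates 2 and 3 in 16 each (0.01 and 0.00). Within the second slide the 30 genes had a median difference of 0.07, against -0.03 over all genes, and 0 rose and 0 fell by limma. The part of slide or animal in these shifts was not tested.

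**Figure D4:**
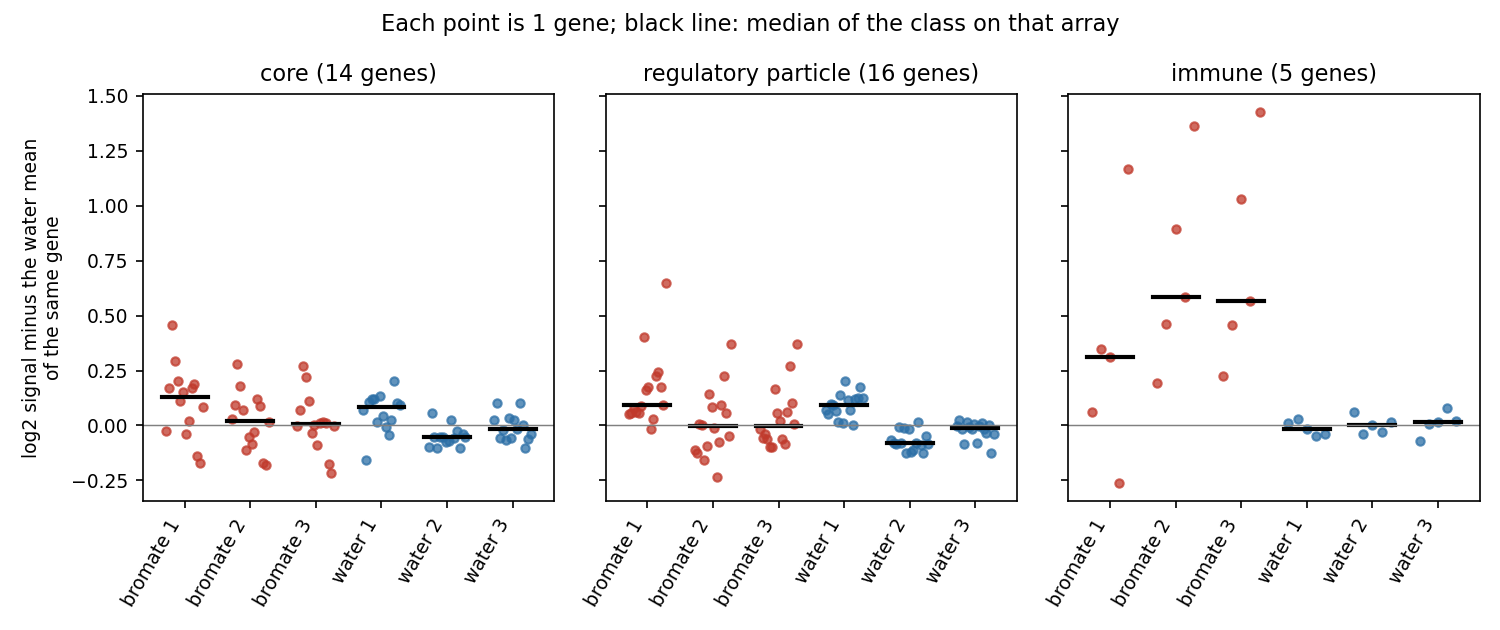
Log2 signal of each gene minus its water mean, per array, for the core (14 genes), the regulatory particle (16) and the immune subunits (5), with the class median on each array as a black line. Core and regulatory particle stay near 0 on all arrays with bromate 1 and water 1 slightly above, while the immune medians are 0.31, 0.59 and 0.57 on the bromate arrays.

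The activators outside the immune class differed between genes and between probes. Psme3, which encodes a nuclear activator that works without ubiquitin, had levels of 3.29, 3.15 and 3.19 on the bromate arrays, against 2.71, 2.78 and 2.76 on the water arrays, and rose by 0.46 ± 0.08 (1.37-fold, adjusted p = 0.0205). The groups were well apart on this probe. Its other, dimmer probe gave 0.07 ± 0.07 (adjusted p = 0.575), and the mean of both probes did not pass (0.26, adjusted p = 0.0617). Psme4, which encodes a large activator that caps the core in spermatids and after DNA damage, had a difference of -0.14 ± 0.12 on its brightest probe and 0.25 ± 0.17 and 0.25 ± 0.15 on its other probes, none of which passed.

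Psme3ip1, which encodes a protein that binds the Psme3 activator, was the member that fell. It had levels of 1.33, 1.44 and 1.31 on the bromate arrays, against 1.99, 1.71 and 1.89 on the water arrays, and the groups did not overlap (-0.50 ± 0.10, 1.42-fold lower, adjusted p = 0.029). The call did not hold without the filter on dim probes (adjusted p = 0.0869) or on leaving out any 1 array (adjusted p from 0.0533 to 0.0899). Without water replicate 1, which is the same fit as slide as a block, the difference was -0.44 (adjusted p = 0.0535). Psmc3ip, a cofactor of meiotic recombination named for its binding to Psmc3, differed by -0.03 ± 0.09.

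For 22 measured genes 28 further probes passed the filter, of which 23 had the sign of the probe standing for the gene and 5 the opposite sign. Tested one by one, 1 of the 28 rose, that of Psme2. The reference gene table holds 46 pseudogenes of these families, among them 8 entries for Psmb3, 5 for Psma6 and 4 for Psme3. Whether the probes also bind transcripts of these copies was not tested.

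The counts of the lists around the proteasome are read against the 14.5% of all genes that passed in either direction. Of 9 measured partners outside the Psm families listed above, such as assembly and deubiquitinating factors, 1 rose and 0 fell (median 0.13), a share near that of all genes, and 2 rose under 4 of the alternatives. It was Zfand2a, which encodes a stress-induced protein that binds the proteasome (0.89 ± 0.12, 1.85-fold, adjusted p = 0.0102). Of 5 genes for NFE2L1 and its processing 0 passed by limma (1 at an unadjusted p under 0.05), including Nfe2l1 itself (0.23 ± 0.09, adjusted p = 0.128) and the unfolding ATPase gene Vcp (0.12 ± 0.10, adjusted p = 0.434). Of 20 genes of ubiquitin supply and shuttling 2 rose and 0 fell (median 0.17), a share of calls again near that of all genes. These were Uchl1, a ubiquitin hydrolase gene (1.73 ± 0.24, 3.31-fold, adjusted p = 0.0125), and Rps27a, which encodes ubiquitin fused to a ribosomal protein (0.45 ± 0.09, 1.36-fold, adjusted p = 0.0295). The count was 0 without water replicate 2, 1 without any other array and 5 to 6 under other scalings. Of 14 targets of NRF2, the factor of oxidative stress, 5 rose and 0 fell (median 0.70), with Gpx2 at 2.58, Srxn1 at 2.17 and Hmox1 at 2.12. In 5 of the 14 the difference was negative without passing: Gclc at -1.80 ± 1.04, Osgin1 at -1.01 ± 0.67, Gsta2 at -0.86 ± 0.21 (adjusted p = 0.0504, groups apart), Me1 at -0.26 ± 0.35 and Gsta3 at -0.09 ± 0.14. The count that fell was 1 in 5 of the alternatives.

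Of 16 genes that load MHC class I peptides 1 rose and 0 fell (median 0.16), with 3 without bromate replicate 1 and 0 without bromate replicate 3. Tap2, a subunit of the transporter that carries proteasome products into the endoplasmic reticulum, had levels of 2.05, 1.83 and 1.96 on the bromate arrays, against 1.10, 0.80 and 1.24 on the water arrays (0.90 ± 0.14, adjusted p = 0.0147). Its partner Tap1, the neighbour of Psmb9, had -0.99, -0.43 and -0.42 on the bromate arrays, against -1.28, -1.19 and -1.19 on the water arrays, and did not pass (0.61 ± 0.17, adjusted p = 0.0645). The bromate arrays of Tap1 ranked as those of Psmb9 did in that replicate 1 was the lowest. This was not particular to the pair, as most genes of the same list shared it. Those were RT1-A1, RT1-A2, RT1-CE1, RT1-CE5, RT1-CE10, RT1-S3, RT1-N3, B2m, Pdia3, Tapbp and Tapbpl. Canx, Calr and RT1-T24-4 did not share it. In Tap2 replicate 1 was the highest bromate array.

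Of 22 measured genes of the interferon response, of 25 with a probe, 3 rose, 1 fell and 18 did not pass (median -0.01). The share that passed, 18.2%, was near the 14.5% of all genes tested. Irf1, a transcription factor that acts on interferon response elements, had 3.57, 3.79 and 3.76 on the bromate arrays, against 2.15, 2.02 and 2.11 on the water arrays (1.62 ± 0.09, 3.07-fold, adjusted p = 0.00125). The chemokine genes Cxcl10 (2.94 ± 0.42, 7.70-fold) and Cxcl11 (1.58 ± 0.22, 3.00-fold) also rose. The gene that fell was the chemokine gene Cxcl9, which was well above background on the 3 water arrays and on 0 bromate arrays, so its level was at least 3.32-fold lower in bromate. It entered the test through the water group, where it is high, and had to differ, so its call supports nothing. In 11 of the 22 genes, Cxcl9 among them, the difference was negative. Mx2 was at -0.39 ± 0.10 with the groups apart (adjusted p = 0.058). Oas1a was at -0.59 ± 0.43, Irf7 at -0.51 ± 0.40 and Mx1 at -0.49 ± 0.25, and none of these passed. The list mean was 0.22, 0.85 and 0.95 on bromate replicates 1, 2 and 3, against 0.35, 0.53 and 0.58 on water replicates 1, 2 and 3, with bromate replicate 1 the lowest. The gene of the list with the largest difference ran the other way, as Cxcl10 had 4.04, 2.41 and 2.65 on the bromate arrays, against 0.02, 0.12 and 0.12 on the water arrays, with bromate replicate 1 the highest. On leaving out 1 array the count that rose was 2 to 7, with 7 without bromate replicate 1. It was 1 with replicate number as a block. The count that fell was 2 with the mean of a gene's probes, the intensity trend and array weights.

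Immune subunits are abundant in leukocytes, so their markers were read alongside. Of 15 measured leukocyte markers of 18 with a probe, 0 rose and 0 fell by limma (2 at an unadjusted p under 0.05, 1 rose with array weights and 1 without bromate replicate 1), with the common leukocyte gene Ptprc at -0.11 ± 0.21 and the brightest marker Lyz2, a lysozyme gene of macrophages, at 0.24 ± 0.21. The 15 markers ranged more widely, from -1.11 to 0.67, with 7 positive and 8 negative. The groups were apart upward in 1 and downward in 1. The list mean of these markers was -0.83, -0.34 and -0.31 on bromate replicates 1, 2 and 3, against -0.47, -0.36 and -0.37 on the water arrays. The summed linear signal, relative to the 75th percentile, was 92.9 to 142 on the bromate arrays and 93.9 to 118 on the water arrays. The B cell marker Cd79b had 0 arrays well above background, the T cell marker Cd3e had 2 and the macrophage marker Cd163 had 1. Bromate replicate 1, with the lowest list mean, was also lowest among bromate arrays in all 3 immune catalytic subunits. The part of leukocyte content in the immune subunits was not tested.

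**Figure D5:**
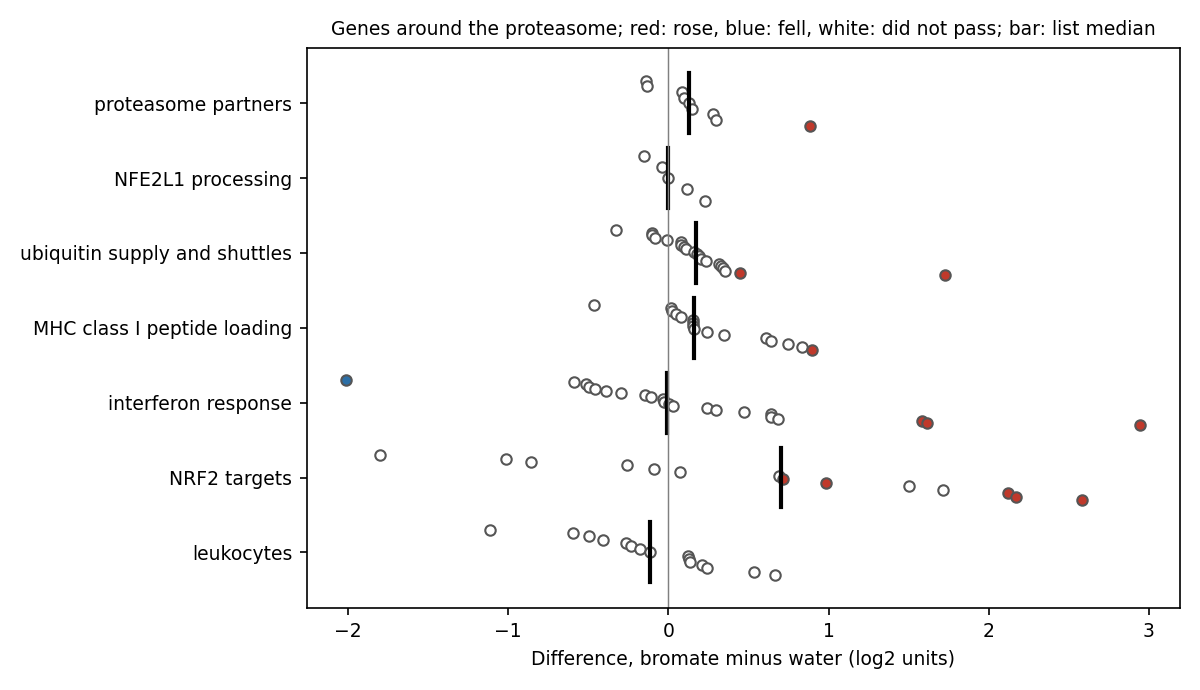
Difference between bromate and water arrays, in log2 units, for each measured gene of 7 lists around the proteasome, with the list median as a black bar. Genes that rose are red and the 1 that fell (Cxcl9) is blue, and the NRF2 list has the highest median at 0.70.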

How the data were processed

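Per the submitters' processing notes, the scans were quantified in Agilent Feature Extraction 10.7. The array design is annotated to rn4, per the file headers. The deposited processed signal is an intensity after background subtraction and spatial detrending, without scaling across arrays, and flags mark spots well above background, saturated (0 on every array) or outlying, per the file headers. The authors' deposited value table holds a ratio. It matched the processed signal over the array's 75th percentile to within 0.328% for ratios above 0.5, and is not centred. Its medians were 0.1025, 0.1055 and 0.1026 for bromate and 0.1043, 0.1049 and 0.1031 for water replicates 1 to 3. Which software scaled it was not given in the sources used here.

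The log2 processed signal was reduced by each array's 75th percentile over non-control probes. Probes were kept if 3 or more of the 6 arrays had them well above background (37783 of 61537). Names came from transcript accessions matched to the RefSeq gene table (28206 probes, 15645 symbols), whose build differs from rn4, so probes have no coordinates here. The brightest probe stood for a symbol, or for an accession without one, which gave 27506 genes. The group difference was fitted in R 4.3.3 (limma 3.58.1, lmFit then eBayes) at an adjusted p of 0.05, without covariates. The scripts were tested on simulated data, with planted changes above the differences of all members except Psmb10. Recovery of smaller changes was not simulated. The number of arrays limits precision. Members and gene lists were chosen with earlier results of these data known. Every member was to be named, and of each list up to 4 genes that passed with the largest difference, or the brightest. A gene that this rule names is not reported here. Nfe2l1, Tap1 and Ptprc fall outside that rule and were chosen after their values were seen. Alternatives covered scaling, background, filter, probe choice, variance model, array weights, slide, replicate number and each array left out.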

Additional observations from a re-analysis of the deposited data

How the results depend on the processing

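Psmb10 kept its call under all 19 alternatives, some of which hold the same values for it. No alternative gave a core, regulatory particle or immune gene that fell. The other calls lay near the threshold. Core genes that rose numbered 1 (Psma3) under quantile normalization, normexp with quantile normalization, the intensity trend and array weights. Members that rose numbered 7 under normexp, 8 with array weights, and 1 without a filter on dim probes and with replicate number as a block. Regulatory particle genes that rose numbered 2 under normexp and array weights, and 0 without the filter, with slide as a block and with replicate number as a block. Immune genes that rose numbered 1 without the filter and with the replicate block, and 3 under normexp, the 6-array filter, the intensity trend and array weights, in which Psmb8 passed. Members that fell numbered 0 without the filter, with slide as a block and with the replicate block. The core median was 0.080 under normexp. Over all genes, 750 rose and 694 fell without the filter, which tests more probes, 2850 and 3396 with array weights, and 585 and 535 with the replicate block. Replicate numbers share no animal, and same-numbered arrays deviated from their group means with correlations of 0.05, 0.07 and -0.10 across genes, so the numbers do not pair the arrays.

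On leaving out 1 array in turn, members that rose ranged from 1 to 5, regulatory particle genes from 0 to 0, immune genes from 1 to 4, members that fell from 0 to 0, the immune median from 0.40 to 0.58, genes that rose from 594 to 1495 and genes that fell from 530 to 1835. Members that rose numbered 1 without bromate replicate 2 or 3 or water replicate 2 or 3. Psme3 missed the threshold in those same cases (adjusted p up to 0.0693) and Psme3ip1 without any 1 array (adjusted p up to 0.0899). The ubiquitin list had 0 to 1 genes that rose and the NRF2 list 3 to 5, and the ubiquitin count was 6 under quantile normalization. Genes near 0 changed sign without passing: Psma6 was 0.0089 under quantile and 0.063 under normexp normalization, where Psmb2 was -0.033, Psmc3 -0.026 and Psmd13 -0.012. Psme4 was 0.12 with the mean of its probes. Psmb2 was -0.0063 with array weights and -0.0026 with slide as a block, where Psmc1 was 0.0099. On leaving out arrays, Psma1 ranged from -0.047 to 0.037, Psma6 from -0.074 to 0.037, Psma7 from -0.024 to 0.10, Psmb2 from -0.0079 to 0.016, Psmc1 from -0.063 to 0.018, Psmc3 from -0.025 to 0.065, Psmc3ip from -0.059 to 0.025, Psmc4 from -0.042 to 0.047 and Psmd13 from -0.046 to 0.10. The cause was not tested.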
